A study of Homo sapiens with 2 samples.

Results

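Transcripts of 10 genes for tensins and focal adhesion linker proteins were examined in HMC1, an established human mast cell leukaemia line. All probe sets annotated to TNS1, TNS3, TLN1, FERMT3, VCL, ACTN1, ACTN4, PXN, ZYX and VASP under a current or former symbol were taken, 23 of the 54675 probe sets on the array and 10 of 19775 named genes. The line had been sorted by flow cytometry with an antibody to the adhesion receptor CD2 into a subclone carrying CD2 on its surface and a subclone without it. Total RNA of each subclone was hybridised to 1 Affymetrix U133 Plus 2.0 array, so each group held 1 sample and each subclone stands for a single derivation of the line. No allele, drug or time point is given for either subclone.

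Focal adhesions join integrins in the cell membrane to actin filaments. Talin and kindlin bind the cytoplasmic tails of integrin beta chains and switch integrins to their active state. Vinculin and alpha-actinin strengthen the link to actin, paxillin and the tensins act as scaffolds, and zyxin brings VASP to sites of force, where it promotes actin filament growth. Blood cells use kindlin-3, the product of FERMT3, in place of the kindlins of other tissues, and mast cells adhere to matrix through such contacts.

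Values are intensities on a linear scale as deposited, and differences are log2 values of the CD2-positive array less those of the CD2-negative array. With 1 array per group no difference carries a replicate error, a p-value or a test. The members were chosen by gene family with the intensities and log2 differences of both arrays already known, so their values are a description. Bacillus probe sets, without a target in human RNA, gave values of 1 to 4 and mark the background. A gene was compared where its brightest probe set reached an intensity of 64 on the higher array. The 2-fold rule counts a gene whose absolute log2 difference is 1 or more. Each array held 54675 values with a median of 4, and summed intensities came to 1860969 for the CD2-positive and 1875750 for the CD2-negative subclone. The 18 spiked-in hybridisation controls were all dimmer on the array of the CD2-positive subclone, by a median of -0.18 in log2 units. Centring on them moves the median of the 3564 genes compared from -0.05 to 0.14. CD2 itself read 219 against 13. The mast cell genes KIT and TPSAB1, which encode the stem cell factor receptor and a tryptase, gave 1373 and 4806 with the CD2-positive subclone, and 1328 and 3142 with the CD2-negative one.

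The sequences upstream of 3 members are shown because TNS1 carried the largest difference, and VCL and ZYX gave the next largest positive and negative differences among members above the floor. They are the 250 bases before the RefSeq gene start in GRCh38.p14, read 5′ to 3′ on the strand of the gene. RefSeq lists 5 starts for TNS1, of which the outermost is given, and 1 each for VCL and ZYX. The arrays do not tell which start was used. The TNS1 window is chr2:218010276-218010525 on the minus strand, the VCL window chr10:73997866-73998115 on the plus strand, and the ZYX window chr7:143381095-143381344 on the plus strand. Capitals mark GGGCGG, the GC box, on either strand.
TNS1: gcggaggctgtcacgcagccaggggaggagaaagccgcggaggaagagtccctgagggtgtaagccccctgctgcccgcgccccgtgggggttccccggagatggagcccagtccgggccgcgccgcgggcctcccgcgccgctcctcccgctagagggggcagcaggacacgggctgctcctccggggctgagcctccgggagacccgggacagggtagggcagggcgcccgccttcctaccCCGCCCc
VCL: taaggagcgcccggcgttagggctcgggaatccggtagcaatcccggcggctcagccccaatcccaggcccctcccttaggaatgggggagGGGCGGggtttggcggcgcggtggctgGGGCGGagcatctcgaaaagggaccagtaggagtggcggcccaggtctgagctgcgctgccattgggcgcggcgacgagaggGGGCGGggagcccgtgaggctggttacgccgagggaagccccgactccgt
ZYX: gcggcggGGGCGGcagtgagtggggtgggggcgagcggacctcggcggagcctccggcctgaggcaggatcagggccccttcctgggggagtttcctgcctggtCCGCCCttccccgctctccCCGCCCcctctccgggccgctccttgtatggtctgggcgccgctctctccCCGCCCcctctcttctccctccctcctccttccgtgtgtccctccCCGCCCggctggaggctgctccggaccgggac

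The TNS1 window held 1 GC box, the VCL window 3 and the ZYX window 5. GGGCGG occurred on either strand in 42.6% of 35116 human windows of this length, and in 13 of the 22 member windows. At least 1 window held it in 9 of the 10 members, all but VASP. A member has 1 to 5 windows, so this count by gene is not comparable with the share per window. The CArG box, the binding motif of serum response factor, was found in 1.16% of windows and among the members in 1 window of ACTN1. The letters TGAGTCA, bound by AP-1 factors, were present in 4.2% of windows and among members in 1 window of FERMT3. The GATA factor motif AGATAA occurred in 9.17% of all windows and in 0 of the 22 member windows. The TATA box letters TATAAA were in 10.7% of windows and, of the members, in 1 window of ACTN1. The E-box CATGTG stood in 9.42% of windows and in 3 of the 22 member windows, those being of ACTN1, ACTN4 and TNS3. The other E-box searched, CACGTG, stood in 6.34% of windows and in 0 of the 22. The searches covered both strands. These matches describe letters only.

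Of the 10 members, 5 reached the floor and 1 of these, TNS1, passed the 2-fold rule. Over all 3564 genes compared, 1.96% passed it, 1.21% higher and 0.758% lower in the CD2-positive subclone. The 5 members above the floor had a median difference of 0.13, and the 3564 genes a median of -0.05. Without TNS1 the other 4 had a median of 0.09, with 3 positive values and 1 negative. Of the 23 probe sets, 9 read higher in the CD2-positive sample, among them all 5 of TNS1, while 5 read lower and 9 equal. At or below the background of 4 on both arrays lay 6 of the 23.

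**Figure D1:**
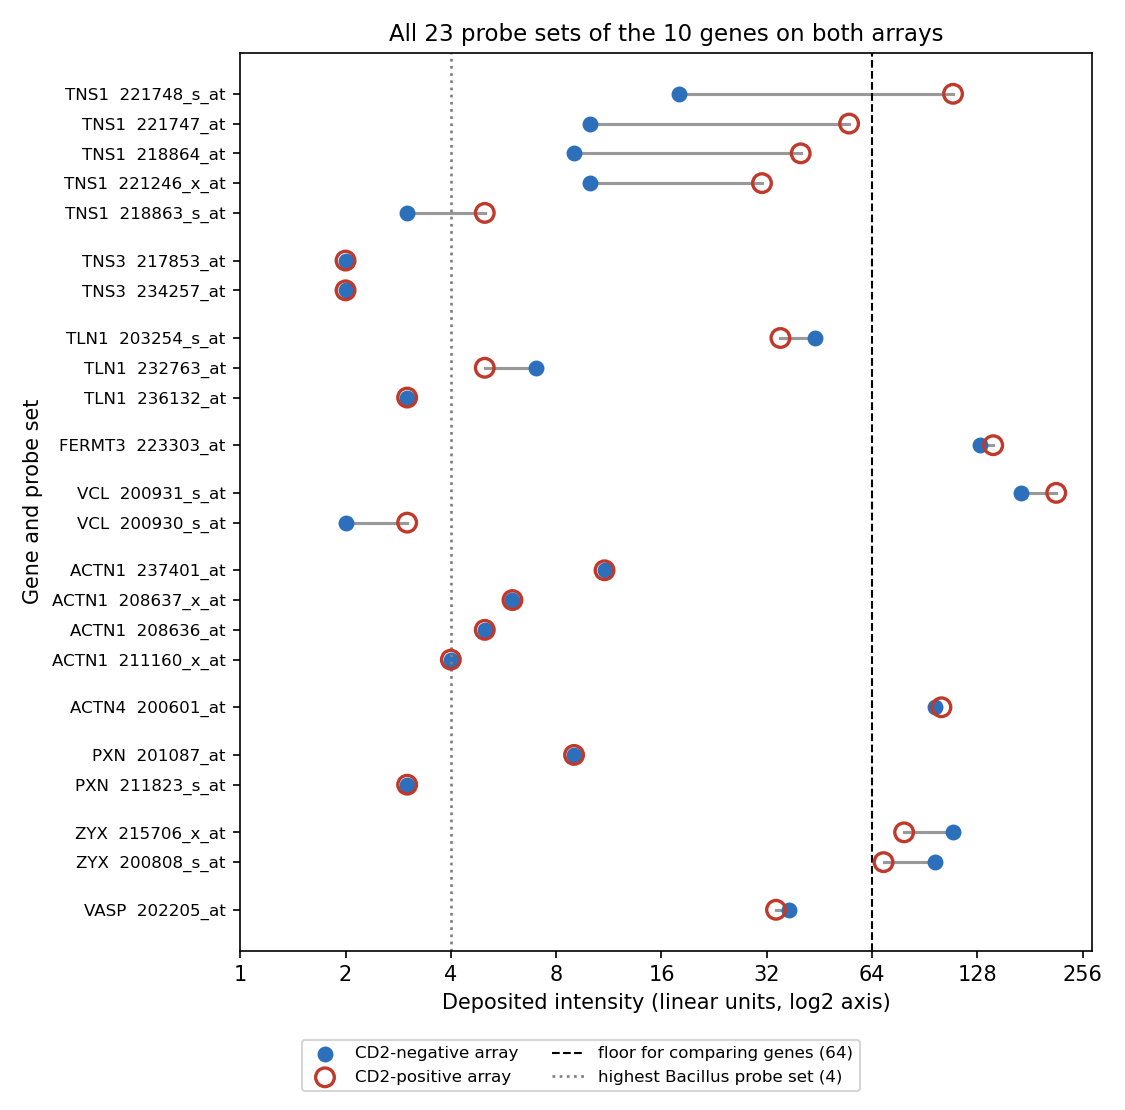
Deposited intensity (log2 axis, linear units) of every probe set of the 10 genes, with a filled point for the CD2-negative and an open circle for the CD2-positive array, joined by a line. The 5 TNS1 probe sets all lie farther right on the CD2-positive array, by most at 109 against 18, while both ZYX probe sets lie farther left and those of ACTN1, PXN and TNS3 coincide.

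TNS1 encodes tensin-1, a scaffold that binds actin and the tails of beta integrins. Its brightest probe set, 221748_s_at, read 109 with the CD2-positive subclone and 18 with the CD2-negative one, 6.06-fold apart (log2 difference 2.60). Rounding of the deposited values to whole numbers leaves this difference between 2.55 and 2.65. Probe set 221747_at read 55 against 10 (5.5-fold), 218864_at read 40 against 9 (4.44-fold), and 221246_x_at read 31 against 10 (3.1-fold). The fifth, 218863_s_at, read 5 against 3, near background on both arrays. The 5 probe sets had 1 sign, and 4 of them were above background on both arrays, with differences from 1.63 to 2.60 (SD 0.43 over these 4 probe sets of 1 RNA pair). For 937 genes with at least 2 probe sets above the floor, the SD of 1 probe set's difference was 0.13, taken from the 2 brightest. Only 1 of the 5 TNS1 probe sets reached the floor, so these SDs cover unlike intensities. Probe sets of 1 gene share the same RNA and are not replicates of the subclones.

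The TNS1 signal of the CD2-negative subclone, at 9 to 18 over these 4 probe sets, was above the Bacillus range of 1 to 4. Whether this low signal came from TNS1 transcript or from other transcripts was not tested. Fewer cells with the transcript and less RNA per cell cannot be told apart in such bulk RNA. Of the 3564 genes compared, 6 had a larger positive difference than TNS1. Among the 225 genes within 0.5 log2 units of its mean level, 26 (11.6%) passed the 2-fold rule and 2 had a larger positive difference. TNS1 lies at the low end, where a gene reaches the floor only if 1 array is bright, so this share exceeds that over all genes. Its call rests on a single probe set above the floor: with a floor of log2 7, with the mean of all probe sets, or with only plain probe set identifiers, TNS1 was not compared and 0 members passed. Its log2 difference was then 1.92 for the mean of all probe sets and 2.46 for plain identifiers. The 20 nearest compared genes on chromosome 2, 10 on each side, had a median difference of 0.01 and ranged from -0.35 to 0.54. Of these 20 neighbours 0 passed the 2-fold rule, near the 1.96% of all 3564 genes compared.

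The genes whose pair of log2 values lay closest to that of TNS1, by Euclidean distance over the 2 arrays, were GZMM, CYP17A1 and ANXA2P2. GZMM, which encodes the cytotoxic protease granzyme M, read 103 against 17 at a distance of 0.12. CYP17A1, a steroid-synthesising enzyme gene, read 84 against 23 at 0.52, and the annexin pseudogene ANXA2P2 read 68 against 18 at 0.68. Brightness differs between probe sets for reasons other than transcript number, and 2 arrays give only 1 contrast.

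TNS3, which encodes tensin-3, read 2 on both arrays with both of its probe sets, at background. The remaining tensin genes were also low: TNS2 read 4 and 4, and the brighter TNS4 probe set read 7 against 6. Values of 2 rounded to whole numbers leave the TNS3 difference anywhere between -0.74 and 0.74.

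Of the kindlin and talin members, FERMT3 reached the floor and TLN1 did not. FERMT3, encoding kindlin-3, read 142 with the CD2-positive and 130 with the CD2-negative subclone on its 1 probe set (log2 difference 0.13). TLN1, encoding talin-1, read 35 against 44 with its brightest probe set, which lay below the floor, a difference of -0.33. A dimmer TLN1 probe set read 5 against 7 and the third read 3 on both arrays. The FERMT3 difference was as large as the probe set SD of 0.13. The difference of TLN1 ranged from -0.49 to -0.15 over the alternative settings. Of the paralogues, TLN2 and FERMT1 read at most 5 with their brightest probe sets on either array. FERMT2, the kindlin-2 gene, read 37 against 24 below the floor.

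**Figure D2:**
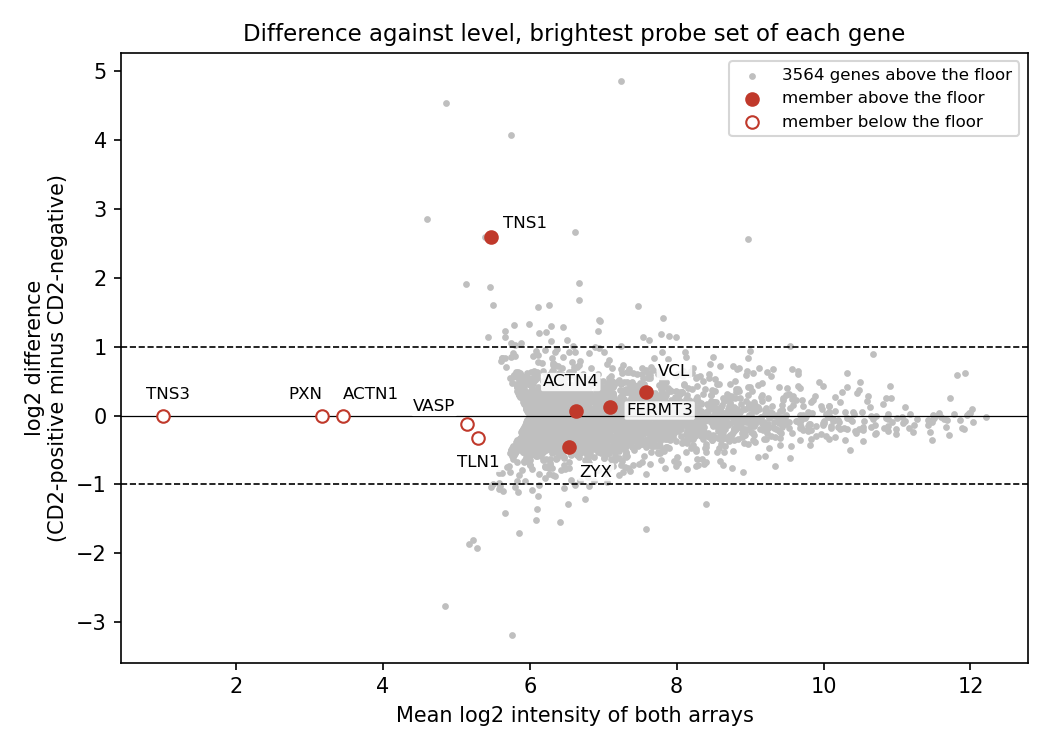
The log2 difference between the arrays (vertical) is plotted against the mean log2 intensity of both arrays (horizontal) for the brightest probe set of each gene, with 3564 genes above the floor in grey and the 10 members in red, open where below the floor. TNS1 at 2.60 is the only member beyond the dashed lines at 1 and -1, and the other 4 filled points lie between -0.46 and 0.34.

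Among the actin linkers, VCL was slightly higher and ACTN4 nearly equal. VCL, which encodes vinculin, read 215 with the CD2-positive and 170 with the CD2-negative subclone, 1.26-fold apart (log2 difference 0.34). Its other probe set read 3 against 2, at background. Of the genes compared, 74.1% had a smaller absolute difference than VCL, so a difference of this size was common on these arrays. ACTN4, the gene for the non-muscle alpha-actinin-4, read 101 against 97 (0.06). ACTN1, the gene for alpha-actinin-1, had 4 probe sets that read 4, 5, 6 and 11, each equal on both arrays. All 4 were below the floor, and rounding leaves the difference of the brightest between -0.13 and 0.13. The muscle paralogues ACTN2 and ACTN3 read at most 4 on either array.

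PXN encodes paxillin, the scaffold that recruits kinases and other adaptors to adhesions. Its probe sets read 9 and 3, equal on both arrays and below the floor. Rounding leaves the difference of the brighter one between -0.16 and 0.16. LPXN, which encodes leupaxin, a paxillin relative of blood cells, read 457 against 468 (-0.03, and 0.15 when centred on the hybridisation controls). TGFB1I1, the gene of the paralogue Hic-5, read 43 against 52.

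By brightest probe set, the most negative difference among the 10 genes was that of zyxin. On probe set 215706_x_at, ZYX read 79 for the CD2-positive and 109 for the CD2-negative subclone, 1.38-fold lower in the former (log2 difference -0.46). Its other probe set, 200808_s_at, read 69 against 97 (-0.49), so both probe sets above the floor agreed to within the probe set SD of 0.13. Of the genes compared, 85.8% had a smaller absolute difference, and ZYX did not reach 2-fold or 1.5-fold. The sign held in all 5 settings that apply to it, between -0.48 and -0.28. The 20 compared genes nearest to ZYX on chromosome 7 had a median of -0.04. TRIP6, the gene of a zyxin relative with the same type of LIM domains, read 59 against 79 (-0.42), and LPP, another relative, read 21 on both arrays below the floor. VASP, encoding the actin polymerase recruited by zyxin, read 34 against 37, a log2 difference of -0.12, or 0.06 after centring on the hybridisation controls. Its relative EVL read 40 against 39. ENAH, the third gene of that family, read 9 against 18 with its brightest probe set, below the floor, and its other 5 probe sets read 6 or less.

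In the lists of genes around the members, PDLIM5 and FHL2 were the only genes above the floor that passed the 2-fold rule. Over all 3564 genes compared, 1.96% passed it. Of 13 paralogues, 2 reached the floor, TRIP6 and LPXN, and 0 passed the rule. Of 34 measured adhesion kinases, scaffolds and adaptors, 10 reached the floor, 1 was at least 2-fold higher and 1 at least 2-fold lower, with a median of -0.24 (-0.06 when centred on the hybridisation controls). PDLIM5, which encodes a PDZ and LIM domain protein that binds alpha-actinin, read 137 against 68 (2.02-fold higher). Its 4 probe sets above the floor gave differences from 0.51 to 1.22, on both sides of the rule. FHL2, a LIM-only adaptor gene, read 39 against 84 with its 1 probe set (2.15-fold lower), and its difference of -1.11 becomes -0.92 when centred on the controls, short of 2-fold. ILK, the gene of the integrin-linked kinase scaffold, read 92 against 85. Of 25 measured integrin subunits, 6 reached the floor and 0 passed 2-fold, with a median of 0.19 (0.37 when centred on the hybridisation controls). The members farthest from 0 were ITGAX at 103 against 62, ITGAL at 214 against 161 and ITGB5 at 89 against 108.

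**Figure D3:**
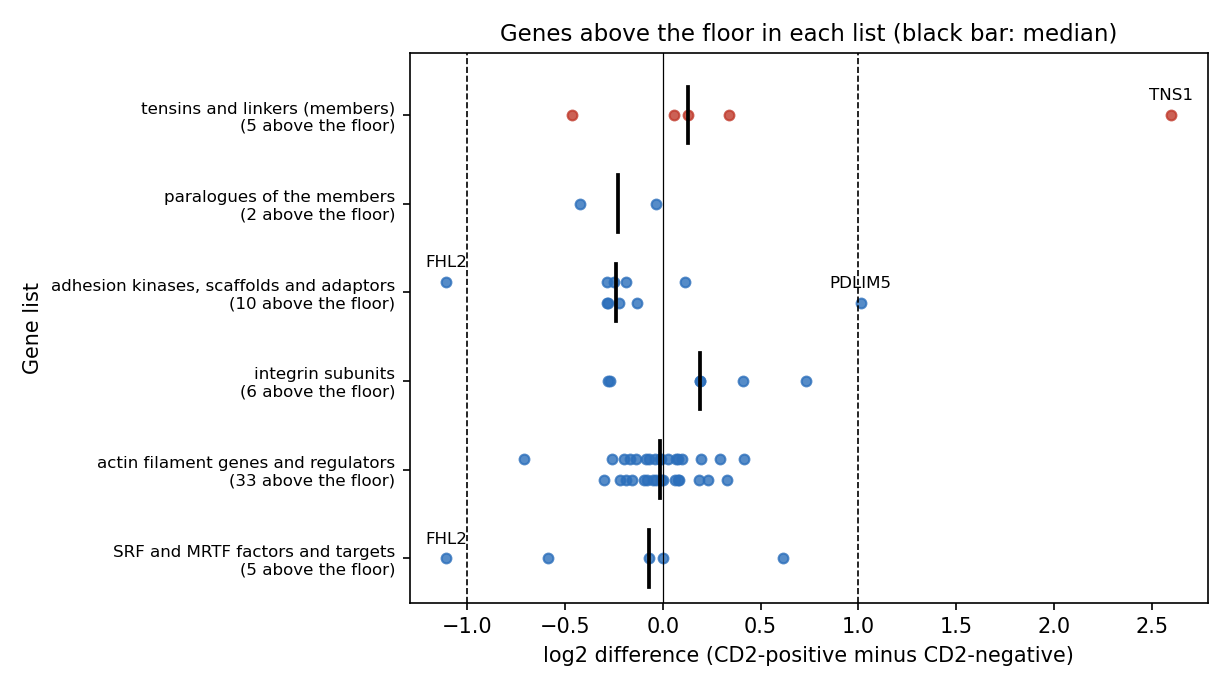
The log2 difference (horizontal axis) of each gene above the floor is shown for the 10 members' list and 5 related lists, with a black bar at the median of each list and dashed lines at 2-fold. TNS1 at 2.60 stands farthest from 0, PDLIM5 (1.01) and FHL2 (-1.11, in 2 lists) lie just beyond 2-fold, and the actin filament genes and regulators lie between -0.71 and 0.41.

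Actin filament genes and regulators were the best measured of these lists, with 33 of 39 above the floor. None of the 33 passed 2-fold, near the 1.96% that passed it over all 3564 genes compared. Of the 33, 13 were positive, 19 negative and 1 equal, with a median of -0.01. That median turns to 0.17 when centred on the hybridisation controls. LCP1, the gene of the actin-bundling protein L-plastin, read 259 against 424 (-0.71), TMSB10, a thymosin gene, read 1471 against 1104 (0.41), and RAC2, the gene of a blood cell GTPase, read 1576 against 1254 (0.33). ACTB, the beta-actin gene, read 3555 against 3491 (0.03). Of 18 measured genes of serum response factor and its targets, 5 reached the floor, with a median of -0.07 that turns to 0.11 when so centred. SRF itself read 67 on both arrays. FHL2, named above, was the 1 gene of the 5 past 2-fold, a list too short to set against the 1.96% of all genes compared.

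Most markers of other cell types were low on both arrays, with a few exceptions. None of 13 fibroblast and smooth muscle markers reached the floor, 7 were at or below 4 on both arrays, and their summed intensity was 104 for the CD2-positive and 120 for the CD2-negative subclone. COL1A2, COL3A1, DCN, LUM and MYH11 read 5 or less. Of the brighter ones, COL1A1 read 17 against 13, PDGFRB 8 against 6, TAGLN 13 against 12 and ACTA2 37 against 57. Of 10 endothelial and epithelial markers 6 were at or below 4, and the list summed to 230 on each array, with KRT19 the only member above the floor at 197 against 198. Of 8 platelet and megakaryocyte markers 6 were at or below 4, and ITGA2B alone was above the floor at 88 against 106. The platelet genes PF4 and PPBP read 3 or less. Of 10 T and NK cell markers 9 were measured and 8 of these were at or below 4, with CD3D at 6 on both arrays. Of 8 monocyte and macrophage markers 6 were measured and 5 of these were at or below 4. The other, ITGAM, read 41 against 38, below the floor. The summed intensity of 11 measured mast cell markers was 10299 against 6712. Of these, 8 reached the floor, with differences from 0.05 (KIT) to 2.56 (CPA3) and a median of 0.55, and 2 of the 8 were at least 2-fold higher. Over all 3564 genes compared, 1.21% were at least 2-fold higher and the median was -0.05. CPA3, the carboxypeptidase A3 gene, read 1220 against 207 (5.89-fold), and HPGDS, the prostaglandin D synthase gene, read 187 against 80 (2.34-fold). GATA2, a transcription factor gene, read 181 against 164. Of the 3 below it, FCER1A read 27 against 8, CTSG 8 against 12 and CMA1 2 on both arrays. The part of these markers in the TNS1 difference was not tested.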

How the data were processed

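Per the submitters' processing notes, the authors used RMA and Affymetrix Expression Console 1.1. The deposited values are intensity values, seen to be linear and rounded to whole numbers. Which background correction was applied is not stated in those notes, and it would change low intensities. Quantile normalisation removes differences in total RNA signal.

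Values were converted to log2. Of 54675 probe sets, 41097 carried 1 gene symbol in the platform annotation, 1801 several and 11777 were not named by it. Entrez identifiers of 41043 were found in RefSeq GCF_000001405.40 (GRCh38.p14) and gave current symbols, and no probe set with several genes held a member. The probe set brightest on average (mean of both log2 values) stands for its gene. The 1 array per group allows no test, and the number of arrays limits precision. Members and lists were chosen with earlier results of these data known. Named genes were all members, list genes past 2-fold or otherwise the 3 farthest from 0, markers of other cell types above the floor, the mast cell markers KIT, TPSAB1 and CPA3, CD2 and the 3 genes nearest TNS1. Other genes, among them paralogues below the floor, ILK, ACTB, SRF and further markers, were picked once their values had been seen. The settings varied were the floor (log2 5, 7, none), the size rule (1.5-fold, 3-fold), the mean of all probe sets, plain probe set identifiers, centring on all probe sets or on the hybridisation controls, lowess (span 0.3) and 16 added to each intensity. The size rule was checked on simulated data, with effects planted only in genes of mean log2 level above 7, brighter than TNS1. The spread simulated was that between probe sets of a gene. The check therefore covers neither TNS1 nor variation between samples. A few genes first placed in the list of actin filament genes and regulators are not reported here. Upstream sequences came from RefSeq, and all 10 members matched. Computation used Python 3.11.15, numpy 2.4.6, pandas 2.3.3 and statsmodels 0.14.6.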

Additional observations from a re-analysis of the deposited data

How the results depend on the processing

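TNS1 read higher in the CD2-positive subclone under all 6 settings that recompute its difference. Its log2 difference was 2.60 as reported, 2.78 centred on the hybridisation controls, 2.46 with plain probe set identifiers, 1.92 when its probe sets were averaged and 1.88 with 16 added to each intensity. The count of members past the rule was 1 as reported and 0 with a floor of log2 7, with probe sets averaged and with plain identifiers, since TNS1 then fell below the floor. It was 1 (TNS1) in the other 8 settings. The median of the members compared was 0.13 as reported, 0.31 centred on the hybridisation controls and 0.00 with no floor, where all 10 members enter. For the other 9 members, 42 recomputed differences moved by less than the probe set SD of 0.13 and 10 by more. Centring on the hybridisation controls adds 0.18 to every gene, which moved all 9 by more than that SD. The remaining move was TLN1 with plain identifiers, at -0.49. Centring on all probe sets changed no value, and averaging cannot change a gene with 1 probe set. These counts thus follow largely from the settings. That SD comes from probe sets above the floor, which TNS3, TLN1, ACTN1, PXN and VASP did not reach. VASP changed sign when centred on the controls, from -0.12 to 0.06. Adding 16 shrinks differences, most at low intensity. It does not reproduce another background correction, and the effect of the unknown correction used was not tested. No paired analysis was possible because each subclone has 1 array, and no replicate could be left out. For VCL and ZYX no plain identifier exists. Signals at or below 4 limit what can be said of TNS3.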
